A study of Mus musculus with 6 samples.

Results

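The 6 genes described here encode the machinery that switches off an activated G protein-coupled receptor: the beta-arrestin genes Arrb1 and Arrb2, and the G protein-coupled receptor kinase (GRK) genes Grk2, Grk3, Grk5 and Grk6. They were taken by symbol from a table of 52513 genes, in which Grk2 and Grk3 stand under those names. RNA came from the L4-L5 spinal cord of WT mice that had been given intrathecal morphine (10 µg in 10 µL) for 7 days, and from WT mice given intrathecal saline over the same period. Each group had 3 libraries, called morphine 1 to 3 and saline 1 to 3 after the sample titles. Strain, sex and age are not in the labels, and the sample descriptions carry runs of numbers without stating whether a library pools several animals, so p-values measure only the spread between these libraries.

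When an agonist such as an opioid occupies its receptor, a GRK phosphorylates the receptor's intracellular face, a beta-arrestin binds the phosphorylated receptor, and coupling to the G protein stops. The arrestin then links the receptor to clathrin and the AP-2 adaptor for internalization, after which the receptor is recycled or degraded. Loss of beta-arrestin 2 in mice is known for stronger and longer morphine antinociception, which is why this machinery is studied in opioid tolerance.

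All 6 genes were expressed, and they stood in the same order in each of the 6 libraries: Grk2 was highest, followed by Arrb2, Arrb1, Grk6, Grk3 and Grk5. None of the 6 passed the test of morphine against saline. Levels are in FPKM, a per-length unit that corrects for sequencing depth, so genes can be set side by side.

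The symbols belong to paralogs, so how well their transcripts can be told apart bears on every value. In GENCODE M21 the coding sequences of Arrb1 and Arrb2 were identical at 73.6% of 1206 aligned bases, those of Grk2 and Grk3 at 74.7% of 2067, and those of Grk5 and Grk6 at 69.8% of 1759. The longest run of bases that a pair shared was 18 for the arrestins, 30 for Grk2 and Grk3 and 20 for Grk5 and Grk6. No 31-base word of a member's main coding transcript occurred in another member. Words shared with any other annotated gene made up 0% for Arrb1, Arrb2 and Grk2, 0.477% for Grk3, 2.47% for Grk5 and 3.17% for Grk6. Between the genes of a pair, a read would be hardest to assign in the stretches of 60 coding bases where they are most alike. These stretches are shown with capitals at the bases that differ between the pair.
Arrb1: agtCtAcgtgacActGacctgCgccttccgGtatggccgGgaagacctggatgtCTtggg
Arrb2: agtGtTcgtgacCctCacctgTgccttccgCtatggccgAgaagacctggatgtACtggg
Grk2: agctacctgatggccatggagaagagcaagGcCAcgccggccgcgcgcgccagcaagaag
Grk3: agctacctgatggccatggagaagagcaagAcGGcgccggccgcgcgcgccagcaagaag
Grk5: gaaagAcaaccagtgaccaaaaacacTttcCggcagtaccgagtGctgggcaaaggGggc
Grk6: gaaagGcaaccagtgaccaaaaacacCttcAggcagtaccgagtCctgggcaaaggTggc
On GRCm38 the arrestin stretches lie within chr7:99587258-99588055 (plus strand, coding bases 156 to 215 of Arrb1) and chr11:70436374-70436618 (plus strand, coding bases 159 to 218 of Arrb2), each across an intron. The Grk2 and Grk3 stretches lie in single exons at chr19:4305922-4305981 and chr5:113015387-113015446 (both minus strand, coding bases 34 to 93). The Grk5 and Grk6 stretches lie within chr19:61069392-61072488 and chr13:55451417-55451574 (both plus strand, coding bases 529 to 588), each across an intron. Even there the pairs differed at 9, 3 and 5 of 60 bases for the arrestins, Grk2 with Grk3 and Grk5 with Grk6.

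Depth was estimated from the steps of low FPKM values at 19.6, 17.6 and 18.3 M fragments (M, mega) in morphine 1, 2 and 3 and at 21.3, 25.4 and 21.1 M in saline 1, 2 and 3. Marker genes matched a lumbar cord: Hoxc10, a homeobox gene of lumbar segments, lay between 50.8 and 65.6 FPKM, and Snap25, a neuronal vesicle fusion protein, between 1498 and 1797 FPKM. The libraries were not alike in composition. The summed level of 7 motor and cholinergic neuron markers was 44.8, 134 and 15.9 FPKM in morphine 1, 2 and 3 and 148, 134 and 24.8 FPKM in saline 1, 2 and 3. Across all tested genes limma called 138 higher and 82 lower after morphine, a split that turned to 101 and 853 when values were rescaled to TPM and to 47 and 55 after quantile normalization. Longer genes had lower fold changes (rho -0.31, Spearman, between fold change and exonic length over 14588 genes, given as a description because genes do not replicate each other).

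Arrb1 encodes beta-arrestin 1, which binds phosphorylated receptors and scaffolds kinases such as ERK. The gene lies on chromosome 7 from 99535466 to 99606771 (plus strand, mm10). Its level was 28.2, 23.4 and 30.03 FPKM in morphine 1, 2 and 3, against 28.5, 27.5 and 34.8 FPKM in saline 1, 2 and 3. The groups overlapped, with morphine 2 the lowest of the 6 libraries and saline 3 the highest. Arrb1 averaged 27.2 ± 3.39 FPKM in morphine and 30.3 ± 3.99 FPKM in saline (SD, n = 3 each). Morphine minus saline came to -0.15 in units of log2(FPKM + 1), the scale of all log2 fold changes here (SE 0.12, 95% interval -0.43 to 0.14, limma adjusted p = 0.512).

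Arrb2 encodes beta-arrestin 2, the arrestin most studied at the mu opioid receptor. It lies on chromosome 11 from 70432635 to 70440828 (plus strand). Arrb2 was at 46.5, 36.3 and 49.2 FPKM in morphine 1, 2 and 3, against 38.7, 38.8 and 39.1 FPKM in saline 1, 2 and 3. The 3 saline libraries were nearly equal, morphine 1 and 3 stood above them, and morphine 2 stood below them. The means were 44.0 ± 6.77 FPKM in morphine and 38.8 ± 0.193 FPKM in saline (SD, n = 3 each), with a log2 fold change of 0.16 (SE 0.11, 95% interval -0.10 to 0.42, limma adjusted p = 0.424). Morphine 2 decided this result: fitted without it, Arrb2 was higher by 0.29 (SE 0.06) and passed at a limma adjusted p of 0.0472, in a fit that called 5.51% of tested genes. Without any other single library the limma adjusted p was 0.512 or more. Rescaled to TPM, Arrb2 came to 0.04 (limma adjusted p = 0.836) and Arrb1 to -0.27 (limma adjusted p = 0.176), with a median of -0.13 over all tested genes. TPM divides by the summed FPKM, which was 741145, 722161 and 720234 in morphine 1, 2 and 3 and 664464, 670280 and 662470 in saline 1, 2 and 3.

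Arrb2 made up 62.2%, 60.8% and 62.1% of the summed beta-arrestin level in morphine 1, 2 and 3, against 57.6%, 58.5% and 52.9% in saline 1, 2 and 3. The 3 morphine shares were all above the 3 saline shares. Among the 15 ratios that can be formed between pairs of the 6 genes, 5 (33.3%) had groups that did not overlap, and among all pairs of tested genes with values above 0 the share was 26.6%. The separation of the arrestin ratio was picked out after its values were seen and is close to that background. The arrestin transcripts also differ in length, with exonic lengths of 11175 nt for Arrb1 and 2845 nt for Arrb2, and with the length trend removed their log2 fold changes were -0.07 and 0.15.

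Grk2 (chromosome 19, 4286001 to 4306222, minus strand) encodes the ubiquitous receptor kinase that free G protein beta-gamma subunits recruit to the membrane. It was at 87.9, 69.0 and 91.0 FPKM in morphine 1, 2 and 3, against 76.5, 79.8 and 99.9 FPKM in saline 1, 2 and 3. The lowest library was again morphine 2 and the highest saline 3, and the groups overlapped widely. Grk2 averaged 82.6 ± 11.9 FPKM in morphine and 85.4 ± 12.7 FPKM in saline (SD, n = 3 each; log2 fold change -0.05, SE 0.14, 95% interval -0.37 to 0.27, limma adjusted p = 0.864). The sign of this small difference turned without morphine 2 (0.08) and without saline 3 (0.07), and in TPM the value was -0.18. Grk2 supplied most of the summed level of the 4 kinases, between 73.6% and 76.5% in every library, and among tested genes its level lay between the 89.6th and the 93.3rd percentile.

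Grk3 (chromosome 5, 112910482 to 113015791, minus strand) is the other kinase recruited by beta-gamma subunits. It was at 11.1, 8.25 and 10.2 FPKM in morphine 1, 2 and 3, against 8.23, 8.43 and 9.99 FPKM in saline 1, 2 and 3. Morphine 1 and 3 were the highest libraries, while morphine 2 was level with saline 1 and 2. The means were 9.83 ± 1.44 FPKM in morphine and 8.88 ± 0.964 FPKM in saline (SD, n = 3 each), and the log2 fold change of 0.13 did not pass (SE 0.12, 95% interval -0.16 to 0.41, limma adjusted p = 0.575). Rescaled to TPM it was 0.01.

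Grk5 (chromosome 19, 60889749 to 61095968, plus strand) encodes a kinase that sits at the membrane without beta-gamma subunits and is inhibited by calcium-bound calmodulin. It was the least abundant of the 6, at 2.38, 2.57 and 1.88 FPKM in morphine 1, 2 and 3, against 2.92, 2.50 and 3.41 FPKM in saline 1, 2 and 3. Only saline 2 lay within the range of the morphine libraries, just below morphine 2. The means were 2.28 ± 0.356 FPKM in morphine and 2.94 ± 0.455 FPKM in saline (SD, n = 3 each). Its log2 fold change of -0.27 was the furthest from 0 among the 6 (SE 0.13, 95% interval -0.57 to 0.04, limma adjusted p = 0.279). Rescaled to TPM it was -0.39 (limma adjusted p = 0.115). With 0.1 in place of the added 1 it was -0.36 (SE 0.18, limma adjusted p = 0.282). The level corresponded to about 297, 288 and 220 fragments in morphine 1, 2 and 3 and to about 395, 405 and 458 in saline 1, 2 and 3, taking the longest transcript. The 95% Poisson interval for morphine 3 was 192 to 251 fragments, which covers counting error alone. Zfp950 runs through the same region on the opposite strand, at up to 10.6 FPKM, and shares no exonic base with Grk5 in the annotation.

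Grk6 (chromosome 13, 55445072 to 55460927, plus strand) encodes the closest relative of Grk5 among these genes, a kinase known in mice for acting on dopamine receptors in the striatum. It was at 14.2, 13.9 and 15.9 FPKM in morphine 1, 2 and 3, against 13.6, 15.3 and 17.7 FPKM in saline 1, 2 and 3. The morphine libraries lay within the range of the saline libraries, from saline 1 as the lowest to saline 3 as the highest. The means were 14.7 ± 1.06 FPKM in morphine and 15.5 ± 2.03 FPKM in saline (SD, n = 3 each; log2 fold change -0.07, SE 0.10, 95% interval -0.32 to 0.17, limma adjusted p = 0.72). Without saline 3 the value was 0.02, and in TPM it was -0.20.

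**Figure D1:**
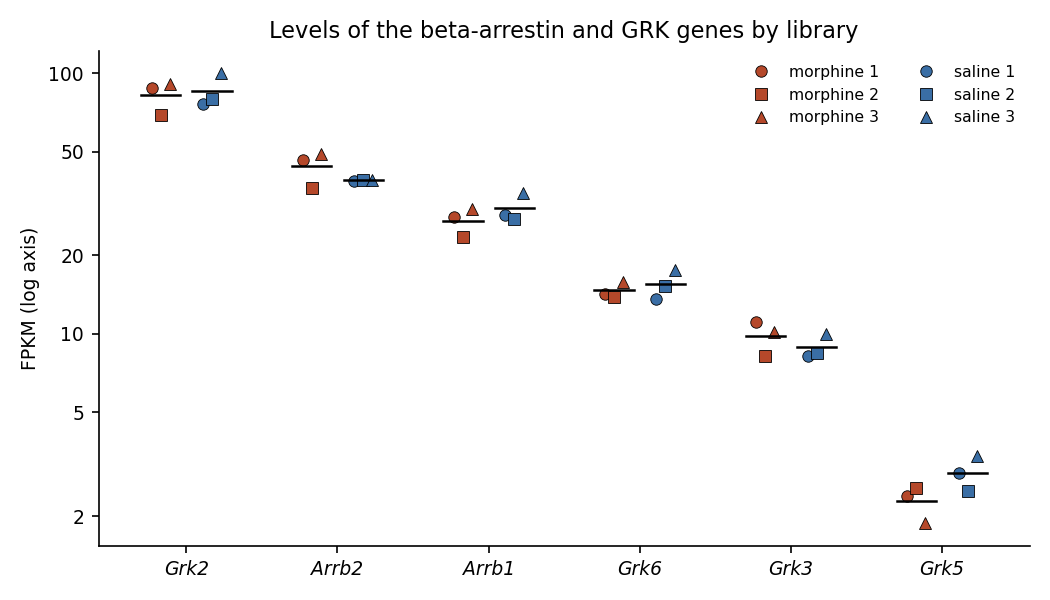
FPKM (log axis) of the 6 genes in each morphine library (left of each gene, red) and each saline library (right, blue), with black lines at the group means. Grk2 lies between 69.0 and 99.9 FPKM and Grk5 between 1.88 and 3.41 FPKM. In FPKM as deposited, not rescaled, no gene's range touches that of its neighbour in the order.

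Thus 0 of 6 genes passed limma's test, where 1.51% of the 14614 tested genes did (0.944% higher and 0.561% lower). At an unadjusted p under 0.05 the count was also 0, against 22.3% of tested genes. In 0 of 6 did the morphine and saline values separate without overlap, against 28.7% of tested genes. The exact two-sided permutation test, whose smallest p with 3 against 3 libraries is 0.1, gave 0.2 for Grk5 and 0.4 or more for the others. These results bound the differences rather than exclude them. The 95% interval of the fold on the log2(FPKM + 1) scale ran from 0.741 to 1.1 for Arrb1 and from 0.936 to 1.34 for Arrb2. It ran from 0.774 to 1.21 for Grk2 and from 0.672 to 1.03 for Grk5. At the low level of Grk5 the added 1 draws the fold towards 1, and its ratio of mean FPKM was 0.773.

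**Figure D2:**
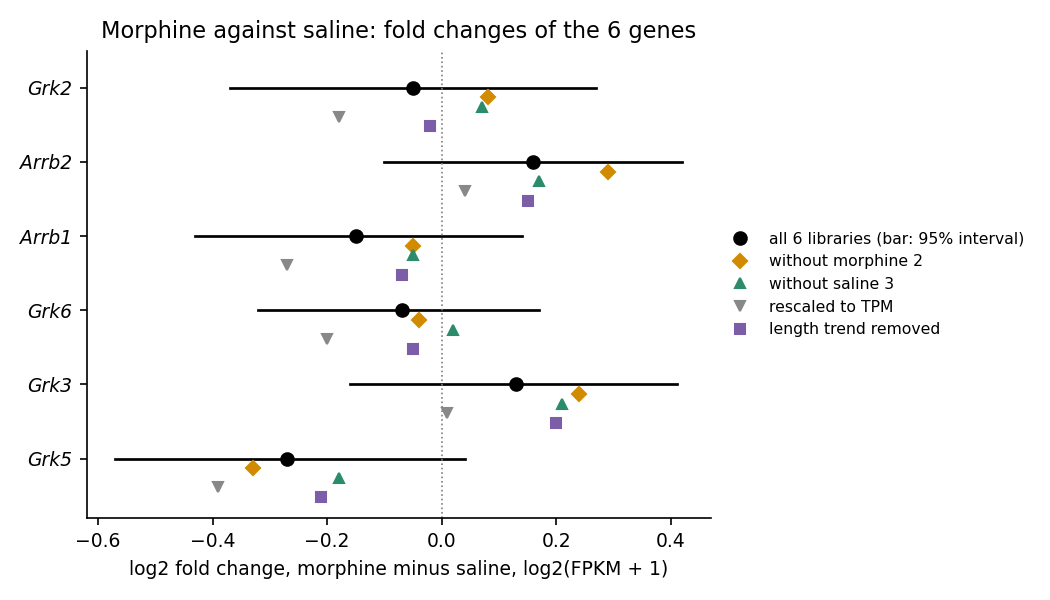
Log2 fold changes of morphine minus saline, on the log2(FPKM + 1) scale, with all 6 libraries (black, bars are limma's 95% intervals) and under 4 other settings. All 6 intervals include 0, and Arrb2 lies at 0.16 with all libraries and at 0.29 without morphine 2.

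In FPKM as deposited, the ranges of neighbours in the order did not touch. Dividing by the summed FPKM (722161 in morphine 2, 662470 in saline 3) makes the ranges of Arrb2 and Arrb1 overlap. The order within each library does not depend on this scaling. Between neighbours, the lowest Grk2 value (69.0 FPKM) was above the highest Arrb2 value (49.2), the lowest Arrb2 value (36.3) above the highest Arrb1 value (34.8), and the lowest Arrb1 value (23.4) above the highest Grk6 value (17.7). The lowest Grk6 value (13.6) was above the highest Grk3 value (11.1), and the lowest Grk3 value (8.23) above the highest Grk5 value (3.41). Grk2 exceeded Grk5 by 36.9, 26.8 and 48.4 times in morphine 1, 2 and 3 and by 26.2, 31.9 and 29.3 times in saline 1, 2 and 3.

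The spread within groups had a shared shape. All 6 genes were highest in saline 3 among the saline libraries, and 5 of 6 (all but Grk5) were lowest in morphine 2 among the morphine libraries. Saline 3 had the lowest motor neuron marker sum of its group and morphine 2 the highest of its group. The summed level of 9 dorsal horn neuron markers, such as Penk and Gad1, went the other way, at 771, 560 and 808 FPKM in morphine 1, 2 and 3 and 631, 671 and 809 FPKM in saline 1, 2 and 3. Summed oligodendrocyte markers were 17917, 22378 and 16511 FPKM in morphine and 19995, 21015 and 14367 FPKM in saline, so they were highest in morphine 2 and lowest in saline 3. The part of these markers in the values of the 6 genes was not tested, and in bulk tissue fewer cells of a type and less RNA per cell cannot be told apart.

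Microglia and macrophage markers, which matter because beta-arrestin 2 and Grk6 are also abundant in leukocytes, were more even, with summed levels of 203, 240 and 215 FPKM in morphine 1, 2 and 3 and 217, 240 and 221 FPKM in saline 1, 2 and 3. Of 10 such markers, 0 passed limma's test and 1 had an unadjusted p under 0.05. Markers of other leukocytes averaged under 1 FPKM for 5 of 8 genes, and 3 were tested. Of these 3, 2 had point estimates below 0 and an unadjusted p under 0.05. The groups did not overlap for 1, and 0 passed limma's test. In the red cell list all 5 genes had point estimates below 0, and 1 passed limma's test (Hbb-bt, a beta-globin). Of the 5, 4 had an unadjusted p under 0.05 and 4 had groups that did not overlap. Among all tested genes 53.1% were below 0, 22.3% had such a p and 28.7% did not overlap. The summed red cell levels were 421, 480 and 595 FPKM in morphine and 838, 757 and 1077 FPKM in saline. The part of blood in the values of the 6 genes was not tested.

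**Figure D3:**
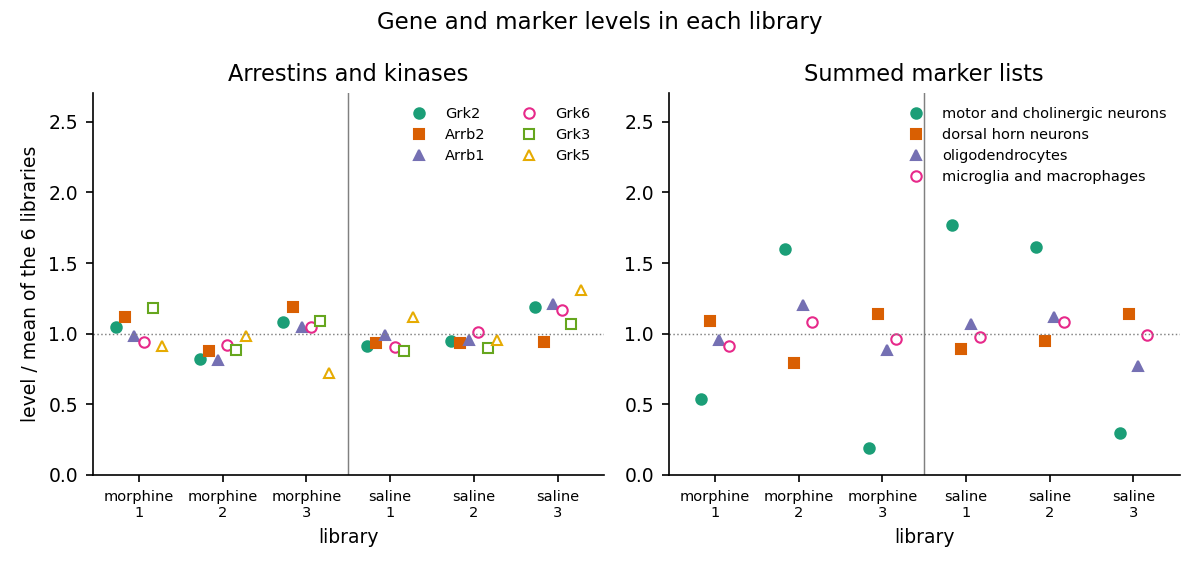
Level of each of the 6 genes (left panel) and summed level of 4 marker lists (right panel) in each library, divided by the mean of the 6 libraries. The motor and cholinergic list runs from 0.19 in morphine 3 to 1.77 in saline 1, while the 6 genes stay between 0.72 and 1.31.

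Over the 6 libraries, Arrb1 and Grk2 ran most closely together (Pearson's r 0.924 of log2(FPKM + 1)), followed by Grk2 with Grk6 (0.823) and Arrb1 with Grk6 (0.806). Arrb2 was nearest to Grk3 (0.798) and ran against Grk5 (-0.704), and its r with Arrb1 was 0.31. These coefficients describe 6 libraries that also share their composition differences.

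Of 12731 named genes compared, between 20 (for Grk5) and 233 (for Grk2) had an r above 0.95 with a given member, which is 0.157% to 1.83% of them. The nearest to Arrb1 were Camk2d (0.996), Cbfa2t2 (0.996) and Myt1l (0.993). Arrb2 was nearest to Slc29a2 (0.992), Arhgap33 (0.99) and Nms (0.989). Grk2 was nearest to Top3b (0.998), Zmiz1 (0.994) and Amotl1 (0.993), and Grk3 to Wipi2 (0.999), Celf2 (0.997) and Grin1os (0.991). For Grk5 the nearest were Slc35f5 (0.988), Lgr4 (0.979) and Pbx3 (0.979), and for Grk6 they were Wwc1 (0.99), Hnrnph2 (0.985) and Slmap (0.985).

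Relatives outside the 6 spanned a wide range of levels. Grk4, a kinase known mainly from testis, was at 2.67, 1.25 and 1.12 FPKM in morphine 1, 2 and 3, against 1.31, 1.63 and 2.15 FPKM in saline 1, 2 and 3 (limma adjusted p = 0.931). The retinal genes were under the level set for testing: the visual arrestin Sag was at 0.48 FPKM or less, the cone arrestin Arr3 at 0.04 or less and the rhodopsin kinase Grk1 at 0.01 or less. The alpha-arrestins, a separate branch that links membrane proteins to ubiquitin ligases, gave 0 calls among 5 tested genes and 0 at an unadjusted p under 0.05. The 2 with the smallest p were Arrdc3, which regulates beta-adrenergic receptors, at 34.8 ± 5.35 FPKM in morphine and 42.2 ± 6.14 FPKM in saline (SD, n = 3 each; limma adjusted p = 0.299), and Arrdc2, at 10.5 ± 1.42 and 8.91 ± 3.37 FPKM (adjusted p = 0.535).

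The genes that act before, with and after the 6 were given as 9 lists of 105 genes, these relatives included, of which 96 were tested. Of the 96, 1 was higher and 2 were lower by limma, which is 3 calls where the background for either direction is 1.51%. At an unadjusted p under 0.05 there were 30 (31.2%, beside 22.3% of all tested genes), and 39 had groups that did not overlap (40.6%, beside 28.7%). Point estimates were below 0 for 66 of the 96 (68.8%, beside 53.1%). Their median log2 fold change was -0.08, beside -0.02 for all tested genes, and -0.04 beside 0.0 with the length trend removed.

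The call upward was Rab4a, a small GTPase of fast recycling from early endosomes (chromosome 8, 123805985 to 123835287). Rab4a was at 53.8, 54.5 and 53.2 FPKM in morphine 1, 2 and 3, against 42.8, 45.2 and 41.8 FPKM in saline 1, 2 and 3, with every morphine value above every saline value (log2 fold change 0.31, SE 0.05, limma adjusted p = 0.0495). In TPM its log2 fold change was 0.18 (limma adjusted p = 0.0853). Gm20388, at up to 13.1 FPKM, overlaps it on the same strand, so its value is uncertain. The other 19 genes of endosomal sorting and recycling gave 0 limma calls, and 6 of them had an unadjusted p under 0.05. With Rab4a that is 35.0% of the list, beside 22.3% of all tested genes. The groups did not overlap for 9 of the 20 genes (45.0%, beside 28.7% of all tested genes). Among these 9 only Rab4a was higher in morphine.

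Nedd4 fell. It encodes a ubiquitin ligase that beta-arrestins recruit to receptors (chromosome 9, 72662346 to 72749852), and was at 78.8, 78.4 and 81.5 FPKM in morphine 1, 2 and 3, against 102.6, 98.3 and 108.4 FPKM in saline 1, 2 and 3 (log2 fold change -0.37, SE 0.06, limma adjusted p = 0.0462). No morphine value reached a saline value. The point estimates of all 9 genes of the arrestin ubiquitin cycle were below 0, where 53.1% of all tested genes were, and their median was -0.19, beside -0.02 for all. Of the 9, 1 passed (Nedd4), and 6 had an unadjusted p under 0.05 (66.7%, beside 22.3% of all tested genes). The groups did not overlap for 7 (77.8%, beside 28.7%). With the length trend removed, 8 of 9 were below 0, with a median of -0.14, and without morphine 2 also 8 of 9.

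Pde4d was called lower in the main fit as well. It encodes a cyclic AMP phosphodiesterase that beta-arrestins bring to activated receptors (chromosome 13, 108449948 to 109953461), and was at 2.65, 2.27 and 2.38 FPKM in morphine 1, 2 and 3, against 4.59, 4.33 and 5.44 FPKM in saline 1, 2 and 3 (log2 fold change -0.75, SE 0.10, limma adjusted p = 0.0453). The groups were well apart, with a ratio of means of 0.508. A ribosomal protein pseudogene, Rps3a3, lies in the same region on the same strand at up to 1.79 FPKM, so the Pde4d value carries some uncertainty. None of the other 13 genes for kinases and phosphatase held by arrestins passed in limma, though 5 had an unadjusted p under 0.05. With Pde4d that is 42.9% of the list, beside 22.3% of all tested genes. The calls of Rab4a, Nedd4 and Pde4d lay just under the threshold, and they held in 3 of 16, 7 of 16 and 7 of 15 other settings, with limma adjusted p up to 0.173, 0.152 and 0.152. Leaving out any single library other than morphine 2 ended all 3 calls. The exonic lengths were 1757 nt for Rab4a, 10973 nt for Nedd4 and 12006 nt for Pde4d, beside a median of 4170 nt, and with the length trend removed none of the 3 passed; the part of length in these values was not otherwise tested.

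The clathrin coat list gave 0 calls among 16 genes in limma and 2 unadjusted p values under 0.05 (12.5%). The vesicle scission list gave 0 calls among 11 genes and 4 such p values (36.4%), beside 22.3% of all tested genes. Ap2s1, the small subunit of the AP-2 adaptor to which beta-arrestins bind, came nearest, at 271, 249 and 258 FPKM in morphine 1, 2 and 3, against 216, 211 and 218 FPKM in saline 1, 2 and 3 (log2 fold change 0.27, limma adjusted p = 0.0542). Its morphine values were all above its saline values, as were those of Ap2m1, the medium subunit (adjusted p = 0.18). In the clathrin coat list the groups did not overlap for 4 of 16 genes, beside 28.7% of all tested genes. Besides these subunits they were Clta, higher in morphine, and Eps15, lower. Point estimates were below 0 for 8 of the 16, and the list's median log2 fold change was 0.0. Hspa8, the chaperone that strips clathrin from vesicles, was at 955 ± 45.0 FPKM in morphine and 1117 ± 24.8 FPKM in saline (SD, n = 3 each; adjusted p = 0.0708), and Bin1, a membrane-bending protein, was at 136 ± 1.90 and 119 ± 5.85 FPKM (adjusted p = 0.104).

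The list of GRK regulators and partners gave 0 limma calls among 12 tested genes. Of its unadjusted p values 5 were under 0.05 (41.7%, beside 22.3% of all tested genes). Hsp90ab1, a chaperone that stabilizes GRKs, was at 649 ± 18.0 FPKM in morphine and 747 ± 23.4 FPKM in saline (SD, n = 3 each; adjusted p = 0.0771). Cav1, a caveolar protein that binds GRKs, was at 10.0 ± 2.27 and 14.6 ± 1.04 FPKM (adjusted p = 0.0936). Endothelium, where Cav1 is abundant, had marker values in the same direction. Of 7 endothelial and pericyte markers 6 had point estimates below 0, beside 53.1% of all tested genes. An unadjusted p under 0.05 was found for 5 of the 7 (beside 22.3%), 4 had groups that did not overlap (beside 28.7%) and 0 passed in limma. Their summed level was 62.6, 76.7 and 71.3 FPKM in morphine 1, 2 and 3 and 80.9, 78.7 and 80.7 FPKM in saline 1, 2 and 3, and their part in the Cav1 value was not tested.

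Of 8 tested receptors that GRKs and arrestins regulate, 0 passed limma's test and 0 had an unadjusted p under 0.05. The smallest p belonged to Adra2a, the alpha-2A adrenergic receptor, at 11.6 ± 0.773 FPKM in morphine and 13.1 ± 0.936 FPKM in saline (SD, n = 3 each; adjusted p = 0.297), and Tacr1, the substance P receptor, at 4.22 ± 0.401 and 4.82 ± 0.338 FPKM (adjusted p = 0.364). Oprm1, the mu opioid receptor through which morphine acts, was under the level set for testing at 0.61, 0.28 and 0.18 FPKM in morphine 1, 2 and 3, against 0.62, 0.50 and 0.67 FPKM in saline 1, 2 and 3. Oprd1, the delta opioid receptor, was also under that level, at 0.32, 0.32 and 0.38 FPKM in morphine 1, 2 and 3, against 0.90, 0.64 and 0.92 FPKM in saline 1, 2 and 3. The Oprd1 groups did not overlap, as was so for 28.7% of all tested genes, whereas those of Oprm1 did. At these low levels the difference in Oprd1 was not tested. Both receptors lay below all 6 members in every library.

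**Figure D4:**
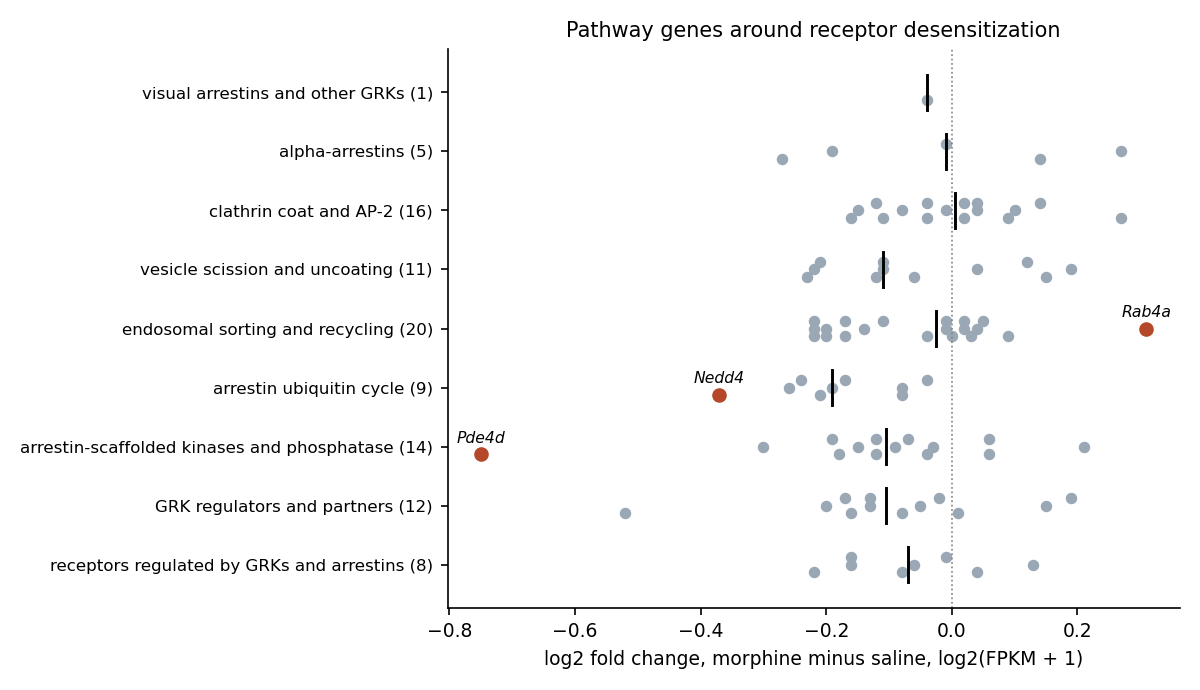
Log2 fold changes (morphine minus saline, log2(FPKM + 1) scale) of the tested genes of each list, with the number tested in parentheses, black bars at the medians and red points for the 3 genes past limma's adjusted p of 0.05. Most points lie between -0.3 and 0.3, and Pde4d, Nedd4 and Rab4a lie at -0.75, -0.37 and 0.31.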

How the data were processed

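The authors deposited 1 table of FPKM values with 2 decimals, 1 column for each of 6 libraries, matched by name to the descriptions. Tools named in the submitters' processing notes are bcl2fastq 2.19.0, STAR, RSEM and Trimmomatic, with the mm10 build. The sources used here do not give other versions, the annotation or whether counting used strand. Libraries came from total RNA with the KAPA Stranded kit, per the labels.

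Columns were not rescaled. The test took genes reaching 1 FPKM in 3 or more libraries, as log2(FPKM + 1), and used limma 3.58.1 under R 4.3.3 (moderated with an intensity trend, two-sided, Benjamini-Hochberg adjusted over 14614 genes, threshold 0.05). Genes under the filter have no printed test. Exact permutation tests and tables used Python 3.11.15 and SciPy 1.17.1. Coordinates, lengths and transcripts came from GENCODE M21 (mm10, 99.8% of tested genes matched), and a member's main coding transcript is the one with the longest complete coding sequence.

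Depth was the value at which low genes of 1 transcript (300 to 1500 nt, 6 fragments or fewer) fell closest to whole fragments: 74.6% to 78.6% were within 0.05 of one, or within the table's rounding where wider, against 12.7% to 16.8% if even. Tested on simulated data with 14614 genes, the morphine against saline fit recovered 52.2% of 1.5-fold and 84.2% of 2-fold changes. The simulated noise was independent between genes and libraries, and folds were set on the log2(FPKM + 1) scale. Composition differences shared within a library were left out, so these rates may not hold for the real libraries or for low genes such as Grk5.

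Members and lists were chosen with earlier results of these data known. Named genes are the members, from each list all calls or else the 2 smallest p values, the 3 tested genes nearest each member in pattern, and high marker genes. Sag, Arr3, Grk1, Oprm1, Oprd1 and Hbb-bt lie outside this rule and were named with their values known.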

Additional observations from a re-analysis of the deposited data

How the results depend on the processing

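None of the 6 genes passed under any other setting but 1: without morphine 2, Arrb2 was 0.29 and passed (limma adjusted p = 0.0472), and over all settings that leave out 1 library it ran from 0.08 to 0.29. Leaving out 1 library gave Grk2 -0.12 to 0.08 and Grk6 -0.16 to 0.02, so their signs turned; the cause was not tested. Arrb1, Arrb2, Grk3 and Grk5 kept their direction in every setting fitted (Grk5 could not be fitted at the filter of 5 FPKM). Genes called higher and lower over the table, 138 and 82 as reported, were 6 and 2 with no filter, 231 and 107 at 5 FPKM, 101 and 853 rescaled to TPM (median log2 fold change -0.13), 47 and 55 after quantile normalization, 387 and 153 after median ratio scaling, 14 and 22 with no intensity trend, 13 and 17 with the length trend removed, and 0 to 531 and 1 to 274 leaving out 1 library (the highest without morphine 2, 4 and 4 without saline 2, and at most 1 each without any of the others). Listed genes called, 1 higher and 2 lower, were 0 higher with a pseudocount of 0.1 or 0.5, 0 and 0 with no filter, 2 and 1 at 5 FPKM, 0 and 17 in TPM, 0 and 5 after quantile normalization, 2 higher after median ratio scaling, 0 and 1 with no intensity trend, 0 and 0 with the length trend removed, and 0 to 2 and 0 to 4 leaving out 1 library. The titles number both groups alike. Deviations of same-numbered libraries had r of -0.129, 0.161 and 0.295, and those of unlike numbers -0.341 to 0.238. The numbers were not taken as pairs in the main fit, and whether they are pairs is not settled by these values. The replicate block gave 17 higher and 7 lower, 0 and 0 among listed genes, and no call among the 6. With the block, the SE fell to 0.07 for Arrb1 (limma adjusted p = 0.255), 0.09 for Arrb2, 0.09 for Grk2, 0.11 for Grk3 and 0.07 for Grk6. That of Grk5 rose to 0.15. The depth limits Grk5 most, with a counting error of 4.67% to 6.74% per library.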
